A study of Mus musculus with 4 samples.

Results

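The matrix metalloproteases (MMPs), the ADAMTS and ADAMTS-like genes and the tissue inhibitors of metalloproteases (TIMPs) were followed here through the acetylation of histone H3 at their promoters in mouse left ventricle. Every gene whose symbol begins with Mmp or Timp and a number, or with Adamts, was taken by name alone, and each was represented by its RefSeq transcript with the highest mean count. This gave 50 genes of 23631 with a symbol: 22 MMPs, 4 TIMPs, 19 ADAMTS proteases and 5 ADAMTS-like genes. All 50 averaged at least 10 counts and stayed among the 22835 genes analysed. Mmp27, also covered by the name rule, was not analysed here.

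The libraries were chromatin immunoprecipitations with an antibody against acetylated histone H3, made from the left ventricle of C57BL6 males that were 10 to 12 weeks old. The animals had transverse aortic constriction (TAC), which narrows the aorta and puts a pressure load on the ventricle, or a sham operation. All were then injected under the skin 2 times a day for 4 weeks with the solvent DMSO (vehicle, Veh) or with trichostatin A (TSA), which blocks histone deacetylases and was given in DMSO at 0.6 mg per kg per day. The sham groups (Sham Veh and Sham TSA) and the constricted groups (TAC Veh and TAC TSA) had 1 library each, and how many animals a library stands for is not known here. The sham labels, unlike the TAC labels, point to an earlier deposit, so surgery and deposit cannot be told apart. The value given per gene is the count of sequencing reads at its promoter, and the total over promoters was 9612616 in Sham Veh and 9905553 in Sham TSA, with 8873302 in TAC Veh and 6842296 in TAC TSA. Because TAC TSA was the shallowest, ratios are of counts scaled between libraries by edgeR's TMM factors (trimmed mean of M-values), and levels are in CPM, scaled counts set to a common library total. Where 4 counts or levels are listed without names, they follow the order Sham Veh, TAC Veh, Sham TSA and TAC TSA.

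With 1 library per group no pairwise ratio had a replicate check. Each log2 ratio below is followed by its exact 95% counting interval, which compares a pair of libraries, covers counting error only and treats reads amplified by PCR as independent. Promoters whose ratio was at least 1.5-fold, with an interval that excluded equality, are called apart. In whole tissue, fewer cells of a type and less acetylation per cell cannot be told apart.

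MMPs are zinc proteases that cut collagens, gelatins, laminins and other matrix proteins, and most are secreted as inactive precursors or held at the cell surface. ADAMTS proteases carry thrombospondin repeats and act on proteoglycans, procollagens or single substrates such as von Willebrand factor, while ADAMTS-like proteins share the repeats but lack the protease domain. TIMPs bind the active site of these enzymes, and in the pressure-loaded heart the balance of proteases and inhibitors is a classical theme in fibrosis and chamber dilation. Acetylated H3 marks open, active promoters, and its level is not a measure of transcript or protein.

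Acetylation differed widely among the 50 promoters. The mean level over the 4 libraries ran from 3.76 CPM at Mmp1b to 150 at Adamts1, with a median of 33.1, against a median of 36.3 over all genes. The highest were Adamts1, an anti-angiogenic protease that cleaves versican and aggrecan, Timp3, the inhibitor that stays bound to matrix, and Mmp15, a membrane-anchored MMP. Adamts1 had 1090 counts in Sham Veh, 925 in TAC Veh, 1032 in Sham TSA and 725 in TAC TSA, and its mean level lay at percentile 99.4 of all genes. Timp3 had 875, 790, 803 and 588 counts, and Mmp15 had 821, 668, 769 and 617. The lowest were Mmp1b with 18, 25, 20 and 28 counts, Mmp1a with 22, 31, 20 and 30, and Mmp12 with 25, 36, 29 and 33.

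Olfactory and vomeronasal receptor promoters, 1278 genes with a median level of 3.11, gave a level for promoters with little acetylation in this tissue. Their 95th percentile was 8.61, and 43 of the 50 genes lay above it. The other 7, all MMPs, were Mmp20, Mmp13, Mmp10, Mmp3, Mmp12, Mmp1a and Mmp1b. The receptor promoters held 0.413% of reads in Sham Veh and 0.418% in Sham TSA, with 0.495% in TAC Veh and 0.663% in TAC TSA. The median log2 ratio of the receptor promoters was 0.67 for surgery under TSA and 0.41 for the drug contrast in loaded hearts. It was 0.29 for the surgery contrast under vehicle and 0.07 in Sham TSA over Sham Veh.

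**Figure D1:**
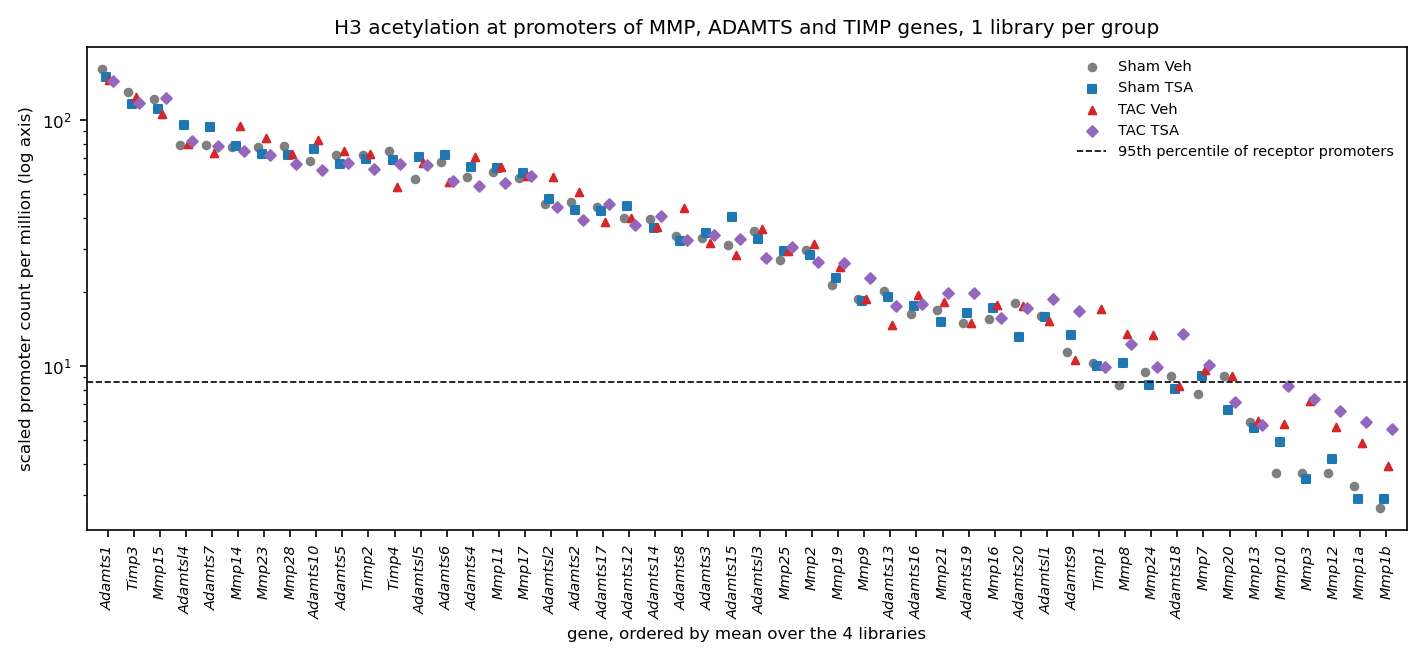
Scaled promoter counts (CPM, log axis) of the 50 genes in each of the 4 libraries, 1 point per library, ordered by mean level; the dashed line is the 95th percentile of receptor promoters, at 8.61. The 7 genes at the right with means under the line are MMPs, and the libraries of a gene lie close together next to the spread between genes.

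The promoter sequences were also described by their content of CpG dinucleotides. Windows of 250 bases before to 50 after the annotated start were taken from RefSeq on the GRCm38.p6 build, and 35 of the 50 genes had one. The counts were made on mm9, so the windows describe the genes and are not the counted regions. CpG-rich windows, with at least 0.6 of the CpG expected from base composition, were found for 17 of the 35 genes (48.6%), against 50.4% of 17109 windows of all genes. The median level was 42.7 CPM for the CpG-rich and 11.5 for the CpG-poor members, and 64.1 and 14.0 over all genes. The log2 difference between the classes of members was 1.90, and 0.55 with the threshold at 0.75. It rested on the 9 MMPs of a cluster on chromosome 9, all CpG-poor, since the median levels of the other 26 members were 42.7 CPM for CpG-rich and 48.9 for CpG-poor windows. The 10 ADAMTS proteases with a window had medians of 33.4 and 40.5, and Adamts1, the most acetylated member, was itself CpG-poor at 0.577. Shown for the 3 highest promoters and for Timp1 and Mmp8, 2 genes that were apart between libraries, are the 250 bases before the start, 5′ to 3′ on the gene's strand, with every CG in capitals. The windows are Adamts1 at chr16:85803114-85803363 (minus strand), Timp3 at chr10:86300162-86300411 (plus strand), Mmp15 at chr8:95352046-95352295 (plus strand), Timp1 at chrX:20869916-20870165 (plus strand) and Mmp8 at chr9:7558179-7558428 (plus strand).
Adamts1: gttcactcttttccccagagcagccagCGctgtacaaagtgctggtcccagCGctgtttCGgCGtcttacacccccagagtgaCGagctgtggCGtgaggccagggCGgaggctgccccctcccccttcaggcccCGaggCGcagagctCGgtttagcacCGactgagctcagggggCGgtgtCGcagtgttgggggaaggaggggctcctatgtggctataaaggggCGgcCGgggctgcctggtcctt
Timp3: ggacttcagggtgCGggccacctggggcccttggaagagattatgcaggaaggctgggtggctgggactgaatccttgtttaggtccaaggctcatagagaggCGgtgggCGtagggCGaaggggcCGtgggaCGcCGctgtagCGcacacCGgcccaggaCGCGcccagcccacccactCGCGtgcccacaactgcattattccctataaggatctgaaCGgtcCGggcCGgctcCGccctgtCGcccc
Mmp15: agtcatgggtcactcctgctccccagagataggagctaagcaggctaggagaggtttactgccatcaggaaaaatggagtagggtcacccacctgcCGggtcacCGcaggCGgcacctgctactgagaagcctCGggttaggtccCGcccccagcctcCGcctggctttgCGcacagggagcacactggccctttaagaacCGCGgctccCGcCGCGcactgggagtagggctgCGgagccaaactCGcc
Timp1: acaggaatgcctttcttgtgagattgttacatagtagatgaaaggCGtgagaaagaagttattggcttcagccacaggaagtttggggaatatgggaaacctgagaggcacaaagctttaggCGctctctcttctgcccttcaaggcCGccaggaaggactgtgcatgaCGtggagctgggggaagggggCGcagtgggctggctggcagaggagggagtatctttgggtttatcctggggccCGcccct
Mmp8: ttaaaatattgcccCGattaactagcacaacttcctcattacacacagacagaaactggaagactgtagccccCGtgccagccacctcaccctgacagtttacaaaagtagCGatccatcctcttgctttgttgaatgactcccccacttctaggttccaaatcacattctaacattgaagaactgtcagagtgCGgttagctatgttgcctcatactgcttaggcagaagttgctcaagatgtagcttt
These stretches held 15 CG in Adamts1, 18 in Timp3, 14 in Mmp15, 6 in Timp1 and 4 in Mmp8. CpG content did not order the levels by itself. Timp4, with 2 CpG in its window, had a mean level of 65.5, whereas Mmp24, with 44, had 10.3, and Adamts18, with 22, had 9.77.

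**Figure D2:**
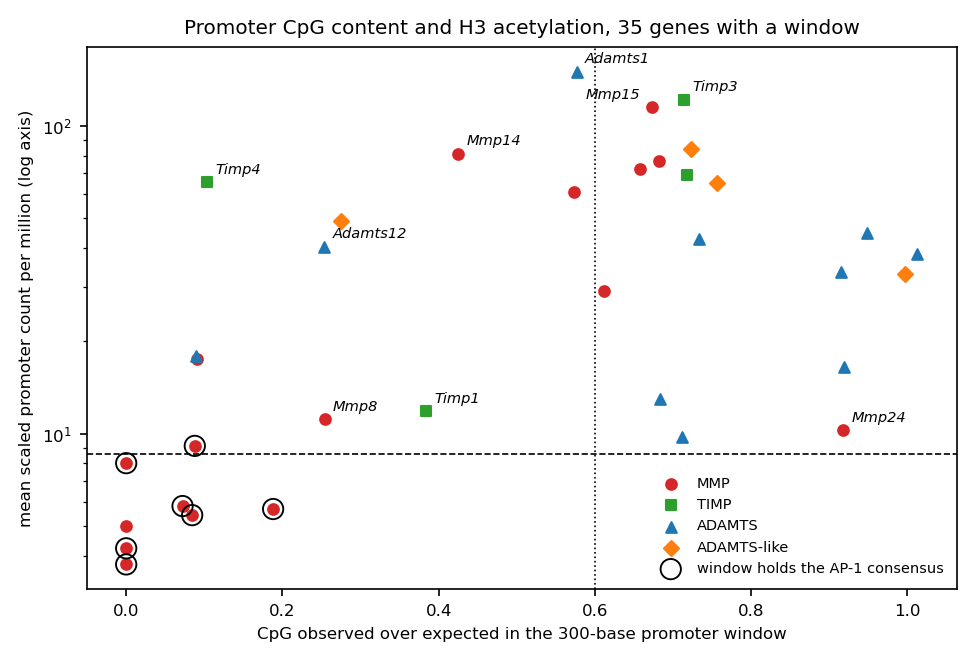
CpG observed over expected in the promoter window (x) against the mean scaled promoter count (CPM) over 4 libraries (y, log axis) for 35 genes, 1 point per gene, coloured by family. The dotted line is the 0.6 threshold and the dashed line the 95th percentile of receptor promoters at 8.61. Circles, labelled AP-1 consensus in the plot, mark windows with the looser sequence TGANTCA. All 7 circled genes are MMPs with few CpG, and Timp4 and Mmp14 lie high with few CpG while Mmp24 lies low with many.

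TAC Veh over Sham Veh asks what pressure overload did in vehicle-treated mice. Timp1, Mmp8 and Mmp3 were apart with higher counts in TAC Veh, 3 of 50 genes, where 1.93% of all genes were apart in that direction. None was apart with lower counts, against 0.582% of all genes. Of the 440 genes apart upward, 434 had a mean count under the median of all genes, as did Timp1, Mmp8 and Mmp3. By the interval alone, 10 genes were higher (5.82% of all genes) and 5 lower (7.2%). The higher ones were Mmp14, Adamts10, Adamtsl5, Adamts4, Adamtsl2, Adamts8, Timp1, Mmp8, Mmp24 and Mmp3, and the lower ones Adamts1, Mmp15, Timp4, Adamts6 and Adamts13. With receptor scaling 1 gene was higher, Timp1 (0.784% of all genes), and 15 were lower (45.3%). The median log2 ratio of the 50 genes was 0.05, with all genes at -0.00.

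TAC TSA over TAC Veh asks what TSA did in loaded hearts, and it shares the TAC Veh library with the first comparison. Adamts9 and Adamts18 were apart with higher counts in TAC TSA, 4% of the 50 genes against 4.06% of all genes, and Timp1 was apart with lower counts, against 0.342% of all genes. Of the 927 genes apart upward, 854 had a mean count under the median of all genes, as did Adamts9 and Adamts18. By the interval alone, 4 genes were higher (8.13% of all genes), namely Mmp15, Timp4, Adamts9 and Adamts18. Another 9 were lower (10.4% of all genes): Mmp14, Mmp23, Adamts10, Adamts4, Adamtsl2, Adamts2, Adamts8, Adamtsl3 and Timp1. With receptor scaling 0 were higher (0.907% of all genes) and 29 lower (57.6%). The median log2 ratio of the 50 genes was -0.01, with all genes at 0.00.

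TAC TSA over Sham TSA gives the surgery contrast under TSA, from libraries that the first comparison did not use. Adamts18, Mmp10, Mmp3, Mmp1a and Mmp1b were apart with higher counts in TAC TSA, 10% of the 50 genes against 7.2% of all genes, and none was apart with lower counts, against 0.206%. Of the 1643 genes apart upward, 1640 had a mean count under the median of all genes, as did these 5. By the interval alone the same 5 were higher (10.3% of all genes) and 6 were lower (13.8%), namely Adamtsl4, Adamts7, Adamts10, Adamts6, Adamts4 and Adamts15. These interval counts changed with the scaling. After loess 1 gene was higher, Mmp15 (5.01% of all genes), and 1 lower, Adamts6 (5.79%). With total counts 9 were higher (14.6%) and 3 lower (6.15%), and with receptor scaling 0 were higher (0.477%) and 33 lower (68.9%). In Sham TSA over Sham Veh, the drug contrast without load, no gene was apart in either direction, with 0.582% of all genes apart in each. Adamtsl4, Adamts7, Adamtsl5 and Adamts15 had intervals above equality (5.2% of all genes), and Timp3 and Adamts20 had intervals below it (3.81%).

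The counts of genes apart depended on how the libraries were scaled. After a loess fit on mean count, all genes apart split into 198 higher and 244 lower in TAC Veh over Sham Veh, in place of 440 and 133. For the drug contrast in loaded hearts the split was 308 and 239 in place of 927 and 78, and for surgery under TSA 190 and 303 in place of 1643 and 47. Scaling on the receptor promoters moved the median of all genes by -0.24, -0.38 and -0.59 in these 3 comparisons. Ratios here are relative to the bulk of promoters.

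**Figure D3:**
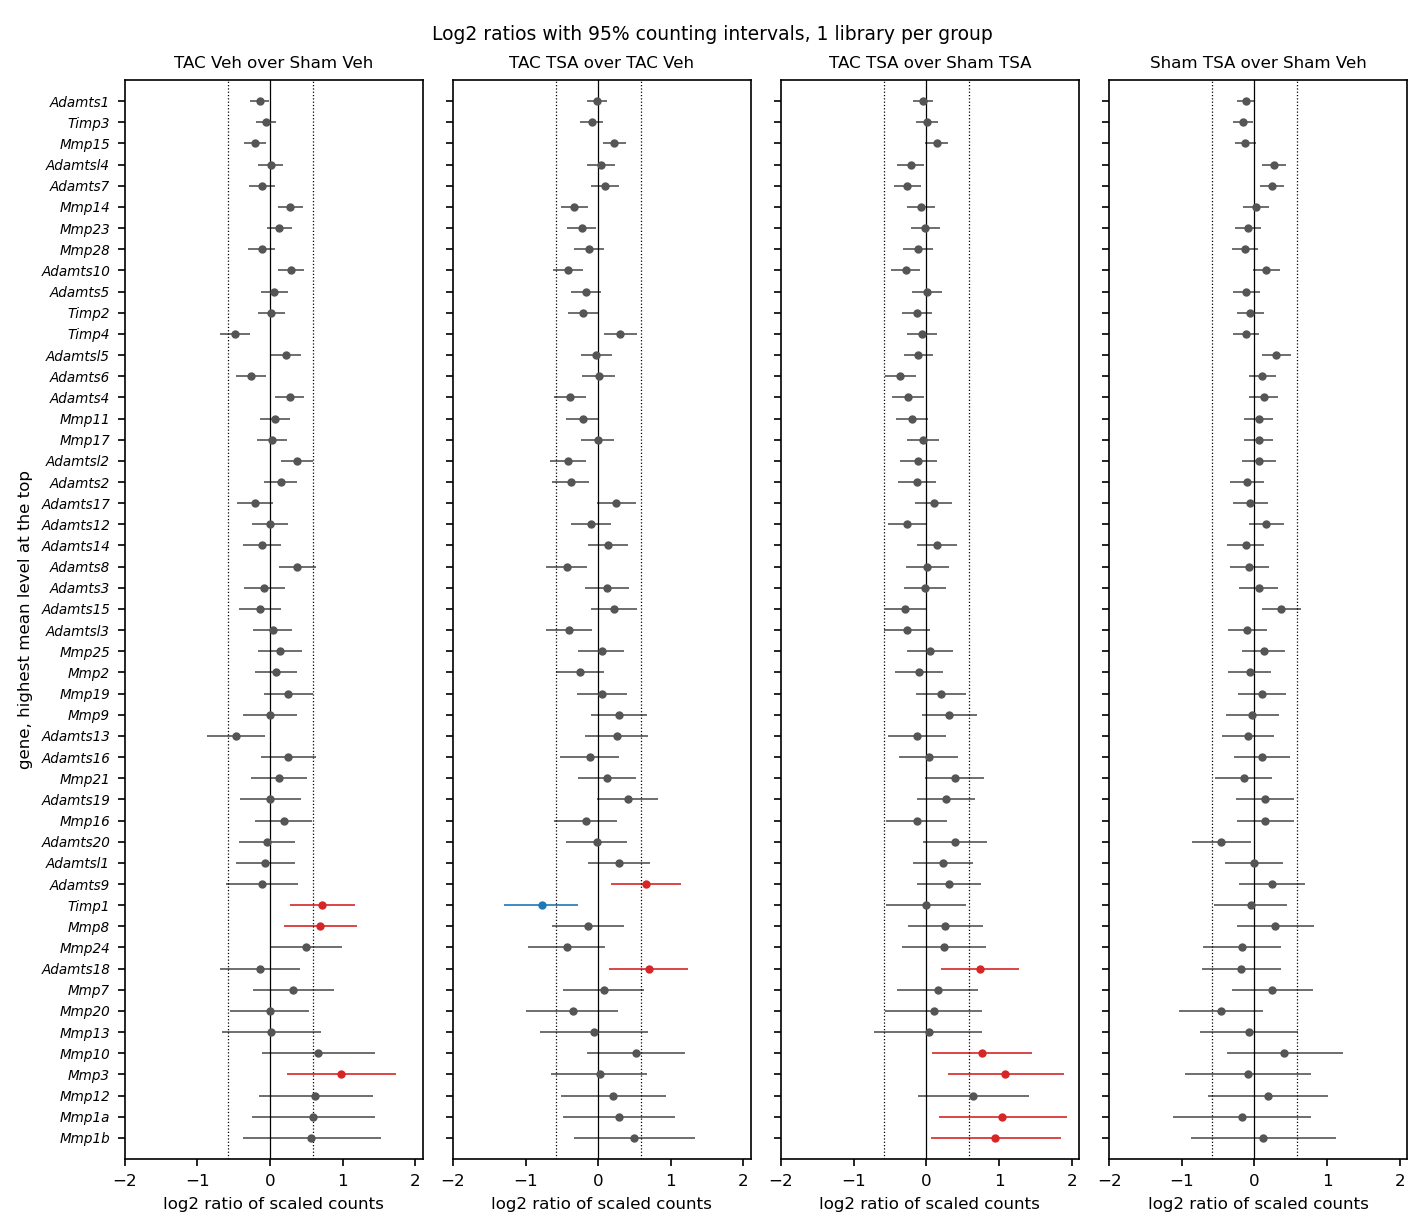
Log2 ratios of scaled promoter counts in the 4 comparisons (x) for the 50 genes, ordered by mean level (y), 1 library per group; bars are 95% counting intervals, dotted lines mark 1.5-fold, and red and blue points are apart with higher and lower counts. Most genes lie within the dotted lines, Timp1 is red in TAC Veh over Sham Veh and blue in TAC TSA over TAC Veh, and the bars widen toward the weakly acetylated MMPs at the bottom.

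Among the inhibitors, Timp1 was the member with the lowest acetylation and the widest ratios. Timp1, a secreted TIMP known to be induced in fibrotic hearts, had 70 counts in Sham Veh, 108 in TAC Veh, 69 in Sham TSA and 50 in TAC TSA. TAC Veh stood above the other 3 libraries, which lay close together once scaled. The log2 ratio was 0.72 (0.27 to 1.17) for TAC Veh over Sham Veh, a 1.65-fold difference, and -0.78 (-1.29 to -0.28) for TAC TSA over TAC Veh, 1.71-fold lower. It was -0.05 (-0.55 to 0.45) for Sham TSA over Sham Veh and -0.00 (-0.56 to 0.54) for TAC TSA over Sham TSA. With receptor scaling the first ratio was 0.48 (0.03 to 0.93) and no longer apart, while the second was apart under each of the 5 scalings used.

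In the RefSeq annotation Timp1 lies within Syn1, a synapsin gene, and the window in which promoter reads were counted is not stated in the labels. Syn1 had 55, 80, 65 and 42 counts. Its log2 ratios were 0.63 (0.12 to 1.16) for TAC Veh over Sham Veh and -0.59 (-1.17 to -0.04) for TAC TSA over TAC Veh, both with the sign seen at Timp1. Whether the counted regions share reads was not tested.

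Timp4, the inhibitor most restricted to heart and a few other tissues, had the opposite order. It had 504 counts in Sham Veh, 339 in TAC Veh, 475 in Sham TSA and 332 in TAC TSA. The log2 ratio of TAC Veh over Sham Veh was -0.48 (-0.68 to -0.28), the lowest of the 50 genes, 1.39-fold lower and short of the 1.5-fold rule. TAC TSA over TAC Veh was 0.31 (0.08 to 0.53), which turned to -0.08 (-0.30 to 0.14) with receptor scaling. TAC TSA and Sham TSA differed by -0.06 (-0.26 to 0.15). Its host gene Syn2 had 113, 136, 123 and 115 counts and a ratio of 0.36 (-0.01 to 0.73) in TAC Veh over Sham Veh, the other direction.

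Timp2, which both inhibits MMPs and helps Mmp14 activate Mmp2, had 486, 462, 478 and 318 counts. Its log2 ratios lay between -0.20 and 0.02, and all 4 intervals included 0. Timp3 lay between -0.16 and 0.01, and only Sham TSA over Sham Veh had an interval that excluded 0, at -0.16 (-0.30 to -0.02).

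**Figure D4:**
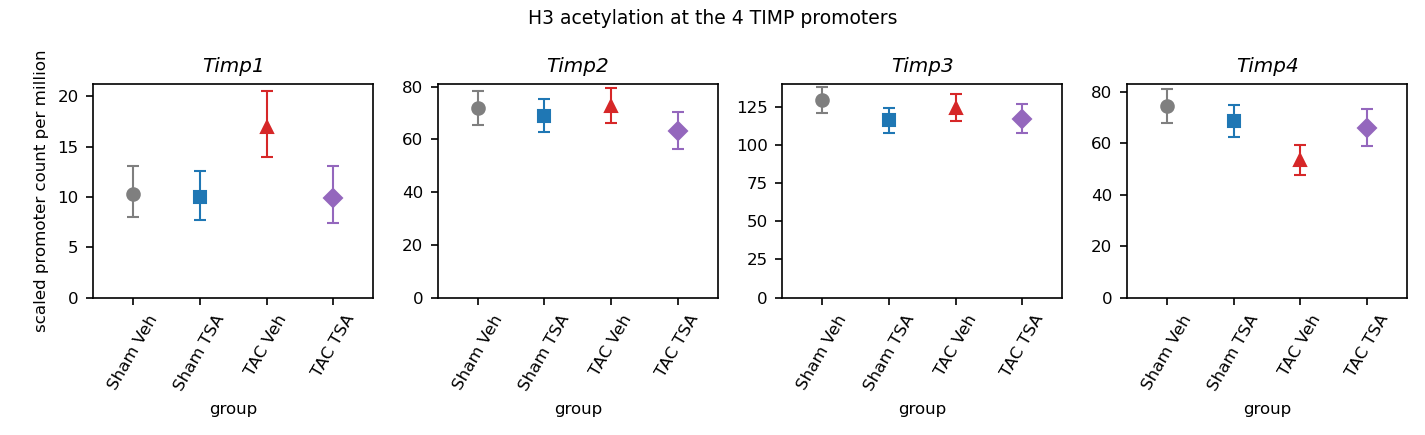
Scaled promoter counts (CPM) (y, from 0, with a separate scale per gene) of the 4 TIMP genes in each library (x), 1 library per group; bars are exact 95% Poisson intervals for counting error. Timp1 is highest in TAC Veh, where it had 108 counts, Timp4 is lower in TAC Veh than in both sham libraries, and Timp2 and Timp3 are level within or near their intervals.

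The genes of the collagenase group, named for enzymes that make the first cut in fibrillar collagen, were weakly acetylated. Mmp8, the neutrophil collagenase, was the highest of the 4 with 57 counts in Sham Veh, 86 in TAC Veh, 71 in Sham TSA and 62 in TAC TSA. TAC Veh over Sham Veh was 0.69 (0.19 to 1.20), and 0.45 (-0.05 to 0.95) with receptor scaling, while TAC TSA over Sham TSA was 0.26 (-0.25 to 0.78). Mmp13 had 40, 38, 39 and 29 counts and no interval that excluded 0. Mmp1a and Mmp1b, the paired rodent counterparts of interstitial collagenase, are paralogs whose windows were identical at 74.85% of aligned positions, and whether reads were shared between them was not tested.

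The gelatinases differed little between libraries. Mmp2, the gelatinase made widely by stromal cells, had 201, 199, 196 and 133 counts, and its log2 ratios ran from -0.25 to 0.08 with every interval including 0. Mmp9, the gelatinase of leukocytes, had 127, 119, 127 and 115 counts, with 0.29 (-0.10 to 0.67) for TAC TSA over TAC Veh and 0.32 (-0.06 to 0.69) for TAC TSA over Sham TSA.

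Of the stromelysins, matrilysin and metalloelastase, Mmp11 was the only one with a strongly acetylated promoter. Mmp11, a secreted protease activated inside the cell by furin-like enzymes, had 415, 408, 441 and 279 counts and no interval that excluded 0. Mmp7, matrilysin, had 52, 61, 63 and 51 counts. Mmp3, stromelysin 1, had 25, 46, 24 and 37 counts, so both TAC libraries were above both sham libraries. Its log2 ratio was 0.97 (0.24 to 1.74) in TAC Veh over Sham Veh and 1.08 (0.30 to 1.89) in TAC TSA over Sham TSA, comparisons that share no library. With loess scaling these were 0.77 (0.04 to 1.54) and 0.56 (-0.22 to 1.37), and with receptor scaling 0.73 (-0.00 to 1.5) and 0.49 (-0.29 to 1.30).

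The mean levels of the 6 membrane-type MMPs ran from 10.3 CPM at Mmp24 to 115 at Mmp15, and Mmp15 and Mmp14 (81.1) were the highest of the MMPs. Mmp14, which cuts collagen at the cell surface and activates pro-Mmp2, had 524 counts in Sham Veh, 597 in TAC Veh, 543 in Sham TSA and 377 in TAC TSA. TAC Veh was the highest after scaling, with 0.28 (0.11 to 0.45) over Sham Veh and -0.33 (-0.52 to -0.14) for TAC TSA over TAC Veh. The first of these was 0.04 (-0.13 to 0.21) with receptor scaling. Mmp15 ran the other way, with -0.20 (-0.35 to -0.06) and 0.22 (0.06 to 0.38), and the latter turned to -0.16 with receptor scaling. Mmp17, a glycosylphosphatidylinositol-anchored MMP, had 395, 377, 420 and 297 counts, and its log2 ratios lay between -0.04 and 0.06. Mmp24, Mmp25 and Mmp16 were lower, and of these only Mmp24 had an interval that excluded 0, at 0.50 (0.02 to 0.99) for TAC Veh over Sham Veh.

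Among the remaining MMPs, Mmp23 was the highest, with 525, 538, 505 and 364 counts and a ratio of -0.23 (-0.42 to -0.03) for TAC TSA over TAC Veh. Mmp28 (epilysin), Mmp19, Mmp21 and Mmp20 (enamelysin, of tooth enamel) had no interval that excluded 0. Mmp20 had the lowest log2 ratio of Sham TSA over Sham Veh among the 50 genes, -0.46 (-1.04 to 0.11), from 62 and 46 counts.

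A run of 9 MMP genes with counts stands on chromosome 9 in the order Mmp13, Mmp12, Mmp1b, Mmp3, Mmp1a, Mmp10, Mmp8, Mmp20 and Mmp7, with Mmp27 between Mmp8 and Mmp20. They include the collagenases and most stromelysins. All 7 genes under the receptor 95th percentile belonged to this cluster, and the other members, Mmp8 and Mmp7, lay just above it at 11.1 and 9.12. None of the 9 windows was CpG-rich, against 17 of 26 other members with a window. The sequence TGANTCA, searched on both strands, is a loose form of TGAGTCA, the consensus bound by AP-1 (dimers of Fos and Jun proteins). It was present in 7 of the 9 windows and in 0 of the 26 others, and in 7.24% of all windows. In 6 of these 7 it read TGAGTCA on one strand or the other, present in 4.64% of all windows, and in Mmp20 it read TGAATCA. The TATA sequence TATAAA, on either strand and not overlapping the first, was present in 8 of the 9 windows and 3 of the 26, and in 12.6% of all. The match in Mmp8 was on the opposite strand, began 3 bases before the start and ran across it. A match describes the letters and shows no binding.

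Of the 7 windows, those of Mmp13 and of the 4 cluster genes that were apart in TAC TSA over Sham TSA are shown, a choice made after the matches were seen. The 120 bases before the start are given 5′ to 3′ on the gene's strand, with both sequences in capitals. They are Mmp13 at chr9:7272394-7272513 (plus strand), Mmp1b at chr9:7388027-7388146 (minus strand), Mmp3 at chr9:7445702-7445821 (plus strand), Mmp1a at chr9:7464021-7464140 (plus strand) and Mmp10 at chr9:7502222-7502341 (plus strand), from RefSeq on GRCm38.p6.
Mmp13: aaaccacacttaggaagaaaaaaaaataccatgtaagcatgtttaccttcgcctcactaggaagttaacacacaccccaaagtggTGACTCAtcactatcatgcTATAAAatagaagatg
Mmp1b: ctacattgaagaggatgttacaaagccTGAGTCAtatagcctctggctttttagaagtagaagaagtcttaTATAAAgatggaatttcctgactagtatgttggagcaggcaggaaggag
Mmp3: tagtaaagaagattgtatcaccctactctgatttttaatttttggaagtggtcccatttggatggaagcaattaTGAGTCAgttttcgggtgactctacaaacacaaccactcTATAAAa
Mmp1a: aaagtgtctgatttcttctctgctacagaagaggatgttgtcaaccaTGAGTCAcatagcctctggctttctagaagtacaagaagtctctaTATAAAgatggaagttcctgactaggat
Mmp10: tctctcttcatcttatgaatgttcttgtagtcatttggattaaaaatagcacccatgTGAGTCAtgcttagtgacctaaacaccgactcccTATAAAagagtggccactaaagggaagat
The first base of TGANTCA stood 35 bases before the start in Mmp13, 46 in Mmp3, 63 in Mmp10, 73 in Mmp1a and 93 in Mmp1b. It stood 63 bases before the start in Mmp7 and 95 in Mmp20.

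The cluster's counts were small. Mmp10, stromelysin 2, had 25 counts in Sham Veh, 37 in TAC Veh, 34 in Sham TSA and 42 in TAC TSA. Summed over the 9 genes the counts were 326, 418, 346 and 348. The summed log2 ratio was 0.45 (0.24 to 0.66) in TAC Veh over Sham Veh, where the summed receptor promoters had 0.24. It was 0.47 (0.25 to 0.69) under TSA, beside 0.59 for the receptors, and 0.07 (-0.14 to 0.28) for TAC TSA over TAC Veh, beside 0.38. All 9 genes were higher in TAC TSA than in Sham TSA, as were 1175 of the 1278 receptor promoters. In TAC Veh 8 of 9 were higher than in Sham Veh, as were 937 of the 1278. Of the 11415 genes with a mean count under the median of all genes, 8728 and 6733 were higher in these comparisons. The 4 cluster genes apart in TAC TSA over Sham TSA were not apart with loess or receptor scaling, with log2 ratios of 0.26 at Mmp10, 0.56 at Mmp3, 0.46 at Mmp1a and 0.33 at Mmp1b after loess.

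The proteoglycan-cleaving ADAMTS genes include the aggrecanases and versicanases. Adamts4, aggrecanase 1, had 398 counts in Sham Veh, 450 in TAC Veh, 444 in Sham TSA and 272 in TAC TSA. After scaling TAC Veh was the highest and TAC TSA the lowest, with 0.27 (0.07 to 0.47) for TAC Veh over Sham Veh and -0.39 (-0.61 to -0.17) for TAC TSA over TAC Veh. Adamts8 had 229, 279, 223 and 164 counts and ratios in the same directions, at 0.38 (0.12 to 0.64) and -0.43 (-0.72 to -0.15). With receptor scaling the ratio for TAC Veh over Sham Veh was 0.14 (-0.12 to 0.40) at Adamts8. Its neighbour Adamts15 on chromosome 9, with 211, 180, 279 and 166 counts, had the other signs with intervals that included 0, at -0.14 (-0.43 to 0.16) and 0.22 (-0.09 to 0.53). Adamts1 differed by -0.14 (-0.27 to -0.02) in TAC Veh over Sham Veh, and the adjacent Adamts5, aggrecanase 2, by 0.06 (-0.13 to 0.24).

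Adamts9, a versican-cleaving protease, was apart in TAC TSA over TAC Veh. It had 77 counts in Sham Veh, 67 in TAC Veh, 93 in Sham TSA and 84 in TAC TSA, which puts TAC TSA highest once scaled. The log2 ratio was 0.66 (0.18 to 1.15), and it was no longer apart after loess, at 0.49 (0.00 to 0.97), or with receptor scaling, at 0.28 (-0.20 to 0.76). Adamts20 had the other interval below equality in the sham hearts, at -0.45 (-0.86 to -0.05) for Sham TSA over Sham Veh, from 122 and 91 counts.

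The procollagen N-propeptidases Adamts2, Adamts3 and Adamts14 trim the amino end of procollagens before fibrils form. Adamts2 had 313, 325, 297 and 198 counts, with 0.15 (-0.08 to 0.38) in TAC Veh over Sham Veh and -0.38 (-0.64 to -0.12) in TAC TSA over TAC Veh. Adamts3 and Adamts14 had no interval that excluded 0.

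Among the other ADAMTS proteases, Adamts7, which degrades cartilage oligomeric matrix protein, was the highest, with 537, 466, 650 and 395 counts. Sham TSA was its highest library, with 0.24 (0.08 to 0.41) over Sham Veh, and TAC TSA over Sham TSA was -0.26 (-0.44 to -0.08), or -0.14 (-0.32 to 0.05) after loess. Adamts10, which binds fibrillin microfibrils, had 460, 527, 526 and 314 counts, with 0.29 (0.11 to 0.47) in TAC Veh over Sham Veh and -0.41 (-0.62 to -0.21) in TAC TSA over TAC Veh. Adamts6 was lower in both TAC libraries, with 455, 356, 500 and 284 counts, -0.26 (-0.47 to -0.06) under vehicle and -0.36 (-0.57 to -0.14) under TSA, the lowest ratio of the 50 genes in the latter. Adamts13, the von Willebrand factor protease, had 137, 93, 132 and 88 counts and -0.47 (-0.86 to -0.08) in TAC Veh over Sham Veh.

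Adamts18, a protease with roles in development, was apart in both comparisons of TAC TSA, which share that library. It had 62 counts in Sham Veh, 53 in TAC Veh, 56 in Sham TSA and 68 in the shallower TAC TSA library, which was the highest once scaled. The log2 ratios were 0.70 (0.16 to 1.24) over TAC Veh and 0.74 (0.21 to 1.28) over Sham TSA. After loess they were 0.47 (-0.07 to 1.02) and 0.40 (-0.13 to 0.94), and with receptor scaling 0.31 (-0.23 to 0.86) and 0.15 (-0.39 to 0.68), so neither was then apart. Adamts12, Adamts16, Adamts17 and Adamts19 had no interval that excluded 0.

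Of the ADAMTS-like genes, Adamtsl4, needed for the fibrillin fibres that hold the lens, was the highest, with 537, 506, 660 and 413 counts, Sham TSA being above Sham Veh by 0.27 (0.10 to 0.43). Adamtsl2, a microfibril protein that binds the latent form of TGF-beta, had 308, 373, 329 and 222 counts. Its ratios had the directions of Adamts10 and Mmp14, with 0.37 (0.15 to 0.59) in TAC Veh over Sham Veh and -0.41 (-0.66 to -0.17) in TAC TSA over TAC Veh. Adamtsl3 was lower in TAC TSA than in TAC Veh, at -0.40 (-0.72 to -0.09), and Adamtsl5 was above Sham Veh in Sham TSA, at 0.30 (0.11 to 0.50), and in TAC Veh, at 0.22 (0.02 to 0.42), which turned to -0.02 with receptor scaling. Adamtsl1 had no interval that excluded 0.

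The design also gives a difference of differences, the surgery ratio under TSA minus that under vehicle. It was at least 1.5-fold with a normal counting interval clear of 0 for 1 gene in each direction, Adamts18 at 0.87 (0.14 to 1.60) and Timp1 at -0.72 (-1.39 to -0.04), where 4.41% of all genes were past the rule upward and 1.23% downward. With total-count scaling the interval for Timp1 reached 0.01, and with loess that for Adamts18 included 0. By the interval alone 3 genes were above 0 (7.06% of all genes), with Mmp15 at 0.35 (0.13 to 0.56) and Timp4 at 0.42 (0.14 to 0.71) besides Adamts18. Another 6 were below 0 (9.08%), namely Adamts10, Adamts4, Adamtsl2, Mmp14, Adamtsl5 and Timp1. With receptor scaling these counts were 0 (0.889%) and 27 (47.2%). At Adamts10 and Adamts4, 4% of the 50 genes, the surgery ratio had opposite signs under the injections with both intervals clear of 0, against 1.01% of all genes. No error between animals enters these values.

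**Figure D5:**
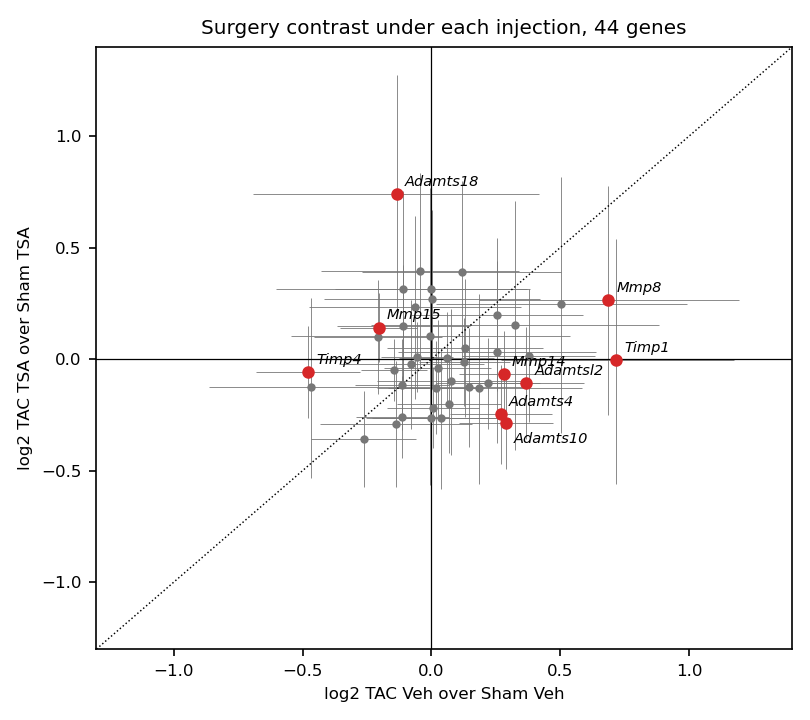
Log2 ratio of TAC Veh over Sham Veh (x) against TAC TSA over Sham TSA (y) for the 44 genes averaging at least 50 counts, with 95% counting intervals as bars and 1 library per group; red points are labelled genes and the dotted line marks equal ratios. Timp1 and Mmp8 lie to the right, Adamts18 at the top, and Adamts4 and Adamts10 below the horizontal zero line and right of the vertical one.

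The one test the design allows, an additive model of surgery and drug over all 4 libraries (edgeR quasi-likelihood with Benjamini-Hochberg adjustment), called none of the 50 genes for surgery or for TSA. DESeq2 and limma-voom also called 0 of the 50. Over all genes, however, DESeq2 called 0 for either effect, and limma-voom called 39 for TSA and 8 for surgery. Over all genes edgeR called 3 higher (0.0131%) and 5 lower (0.0219%) for surgery, and 47 higher (0.206%) and 2 lower (0.00876%) for TSA. At an unadjusted p under 0.05, 5 genes were higher and 2 lower for surgery, against 5.22% and 4.1% of all genes, and 2 higher and 0 lower for TSA, against 2.78% and 1.49%. Mmp3 had the lowest p for surgery, with a log2 difference of 1.02 (SE 0.32) and an edgeR adjusted p of 0.261. Adamts6 followed at -0.31 (SE 0.11, edgeR adjusted p = 0.33). Timp1, whose ratios under the 2 injections differed, had 0.40 for surgery with an edgeR adjusted p of 0.595.

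Genes around these enzymes were taken from 4 lists, of which none had a call in the additive edgeR fit: 17 MMP activators and inhibitors, 10 ADAM proteases, 23 matrix substrates and 20 inducers and transcription factors. In TAC Veh over Sham Veh 1 of the 70 was apart, Runx1, a transcription factor known to regulate collagenase genes, where 1.93% of all genes were apart upward and 0.582% downward. Runx1 had 367 counts in Sham Veh, 541 in TAC Veh, 395 in Sham TSA and 216 in TAC TSA, with 0.65 (0.46 to 0.85) in TAC Veh over Sham Veh and -0.99 (-1.22 to -0.76) in TAC TSA over TAC Veh. In the latter the proteoglycan Bgn was the other gene apart, at -0.61 (-0.92 to -0.30), both with lower counts, as were 0.342% of all genes. With receptor scaling every log2 ratio in TAC Veh over Sham Veh moves by -0.24. Runx1 is then no longer apart there, though its interval still excludes equality. In TAC TSA over TAC Veh the move is -0.38, further from equality for Runx1 and Bgn. Plg, the plasmin precursor, and the protease inhibitor A2m were apart in TAC TSA over Sham TSA, at 0.60 (0.07 to 1.13) and 0.65 (0.08 to 1.23), 2 of the 70 where 7.2% of all genes were apart upward. Plg had 54, 58, 60 and 66 counts and A2m had 47, 56, 50 and 57. The receptor promoters had a median of 0.67 in TAC TSA over Sham TSA. Receptor scaling moves every log2 ratio there by -0.59, which leaves neither gene apart. The median log2 ratios in TAC Veh over Sham Veh and in TAC TSA over TAC Veh were 0.18 and -0.17 for the activators and inhibitors, 0.04 and -0.08 for the ADAMs, 0.14 and -0.16 for the substrates and 0.03 and -0.14 for the inducers, with all genes at -0.00 and 0.00. Of the substrates, Col1a1, Col1a2, Col3a1, Dcn and Lum are also among the fibroblast markers described next.

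Markers of heart cell types moved with the same libraries. Of 10 cardiomyocyte markers, with mean levels of up to 80.4 CPM, the median log2 ratio was -0.60 in TAC Veh over Sham Veh and 0.69 in TAC TSA over TAC Veh, and their summed level was 598 in Sham Veh and 691 in Sham TSA, with 403 in TAC Veh and 686 in TAC TSA. The 10 fibroblast markers had 0.32 and -0.27, with summed levels of 293, 371, 312 and 306. In TAC Veh over Sham Veh 10 of 10 were higher, as were 11400 of the 22835 genes. The 9 leukocyte markers measured, of 10 listed, had 0.28 and -0.41, with summed levels of 215, 244, 255 and 195. The 8 endothelial markers had -0.23 and 0.04 and the 6 smooth muscle and pericyte markers 0.12 and -0.07. In TAC Veh over Sham Veh 8 of 9 leukocyte and 5 of 6 smooth muscle and pericyte markers were higher. All 10 cardiomyocyte and all 8 endothelial markers were lower. These marker ratios are with TMM scaling, and receptor scaling moves them all by -0.24 and -0.38 in the 2 comparisons. The additive edgeR fit called 6 of the 10 cardiomyocyte markers higher for TSA (0.206% of all genes), and no marker of the other types, while DESeq2 called 0 genes for TSA. The median log2 ratio of the cardiomyocyte markers was 0.18 in Sham TSA over Sham Veh. For 8 of these 10 the surgery by drug interval lay above 0 (7.06% of all genes), a difference that the additive model leaves out. No marker measured had 0 counts in any library. The part of cell composition in the ratios of Timp1, Timp4, Mmp14, Mmp8 and the other genes above was not tested.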

How the data were processed

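Promoter reads of acetylated histone H3 were measured in 4 left ventricle libraries, 1 per group, grouped by their titles. The authors deposited promoter read counts for RefSeq transcripts, as whole numbers without normalisation. Per the submitters' processing notes, BWA 0.5.9, MACS 1.4.1 and mm9 were used; the role of each, the promoter window, the counting tool and the treatment of duplicates and input are not stated there. The deposited lists of regions were not used here, since they carry mm9 coordinates without gene names.

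Of 31594 transcript IDs, 31115 (98.5%) matched a RefSeq symbol, and the 479 others held 1.11% of counts and were left out. The ID with the highest mean count stood for a gene, and a mean of at least 10 counts was required. Of the 50 genes, 6 had several IDs, and 10 overlap another protein-coding gene, so reads may be shared. Counts were scaled by TMM (edgeR 4.0.16, R 4.3.3), and pairwise ratios had exact conditional (Clopper-Pearson) intervals. The additive model (edgeR, threshold 0.05) had 1 residual degree of freedom, the interaction. Its spread came from the fit across all genes, and no gene had a spread of its own. DESeq2 1.42.0, limma-voom (limma 3.58.1), other scalings, no filter and a 2-fold rule were alternatives. The ratio and model scripts were tested on simulated data. Other steps used Python 3.11.15, with pandas 2.3.3, numpy 2.4.6, matplotlib 3.10.9 and scipy 1.17.1.

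The members and lists were chosen with earlier results of these data known. Genes named were the TIMPs, Mmp2, Mmp9, Mmp14, those apart in any comparison, the 3 highest and 3 lowest, the extremes of each comparison with a mean count of at least 50, and the highest of each role; others are given by their interval. Sequences beyond the highest and apart genes were chosen after their motif matches were seen.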

Additional observations from a re-analysis of the deposited data

Results flagged for a closer look

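At 2 promoters the surgery ratio had opposite signs under the 2 injections, with both counting intervals clear of 0, 4% of the 50 genes, where 1.01% of all genes met this rule and 0.701% did so upward under vehicle and downward under TSA. At Adamts10 the log2 ratio was 0.29 (0.11 to 0.47) in TAC Veh over Sham Veh and -0.28 (-0.49 to -0.08) in TAC TSA over Sham TSA, a difference of -0.57. At Adamts4 the ratios were 0.27 (0.07 to 0.47) and -0.25 (-0.47 to -0.03), a difference of -0.52. With 1 library per group the difference was not tested. The negative ratio of Adamts10 was -0.16 (-0.37 to 0.04) and that of Adamts4 -0.13 (-0.35 to 0.09) with loess scaling, and with receptor scaling the positive ratios were 0.05 (-0.13 to 0.23) and 0.03 (-0.17 to 0.23).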

How the results depend on the processing

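No paired analysis was possible because each group had 1 library, and leaving out a library leaves the additive fit no residual degree of freedom. With receptor scaling the median log2 ratio of the 50 genes was -0.19 in TAC Veh over Sham Veh, where it was 0.05 with TMM, -0.40 in TAC TSA over TAC Veh and -0.59 in TAC TSA over Sham TSA. With total counts the latter 2 were 0.026 and 0.079, and with loess that of TAC TSA over TAC Veh was -0.05. The numbers of genes apart with receptor scaling were 0 higher and 2 lower in TAC Veh over Sham Veh, 0 and 14 in TAC TSA over TAC Veh, 0 and 25 in TAC TSA over Sham TSA, and 0 and 13 for the surgery by drug difference, where all genes apart with lower counts came to 3.79%, 14.2%, 52.1% and 15.6%. All genes apart with higher counts came to 0.521%, 0.442%, 0.447% and 0.701% with receptor scaling. With loess the numbers apart in TAC TSA over TAC Veh were 0 higher (1.35% of all genes) and 2 lower (1.05%). They were 0 higher in TAC TSA over Sham TSA (0.832%) and 0 higher for the surgery by drug difference (1.88%). With total counts 0 were lower for that difference (0.889%). At 2-fold 0 were higher in TAC Veh over Sham Veh (0.828%), and 0 higher (1.27%) and 0 lower (0.00876%) in TAC TSA over TAC Veh. At this fold 2 were higher in TAC TSA over Sham TSA (2.98%), and 0 higher (1.72%) and 0 lower (0.241%) for the difference. The median log2 level of CpG-rich less CpG-poor windows was 0.55 at a threshold of 0.75 and 1.90 at 0.6. The cause was not tested. The number of the 50 genes called in the additive fit was 0 under every alternative run, over which the calls among all genes ranged from 0 to 58 for TSA and from 0 to 12 for surgery. DESeq2 size factors, no filter and summed transcript rows kept each count of genes apart within 1.5 times. Counting error limits the weakly acetylated MMPs, where 18 to 62 counts allow wide intervals.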
